A study of Mus musculus with 6 samples.

Results

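ESRRB regions around Tfap2c, the gene for the transcription factor AP-2gamma, were followed by ChIP-seq in E14 mouse embryonic stem cells. A region was counted when a summit of it lay within 100 kb of the Tfap2c gene span (gene 21420, chromosome 2, 172545678 to 172558622, mm10 and RefSeq GRCm38.p6). By this rule the locus held 11 of the 13767 regions called in 2iL, 8 of 10970 at 48 h and 8 of 7018 at 96 h. The locus was chosen by its measured values, for the many 2iL regions that were called again later, so its counts and its shares of regions called again are descriptions and carry no test. The cells were grown in 2iL, which is N2B27 medium supplemented with the GSK3 inhibitor CHIR99021 at 3 µM, the MEK inhibitor PD0325901 at 1 µM and LIF, or were collected 48 h and 96 h after the change to N2B27 without these 3 additions. Each condition had 1 library made with a mouse monoclonal antibody to ESRRB, and no replicate, so the intervals below cover counting error only. The lists hold no expression values, so the cell type could not be checked against marker genes. A lower signal may mean fewer cells with ESRRB at a site, less ESRRB per cell or a library that worked less well. These cannot be told apart here.

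AP-2 proteins bind GC-rich palindromes in DNA as dimers, and AP-2gamma is known for its part in the trophoblast, in the making of germ cells and in pluripotent cells. ESRRB is an orphan nuclear receptor of the naive pluripotency network, which is taken apart when 2iL is withdrawn. Estrogen-related receptors bind as a rule to a single extended site, TCAAGGTCA, of which AAGGTCA is the core.

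The regions of the 3 lists fell on 12 separate sites around Tfap2c once overlapping intervals were merged. All 3 libraries called 6 of them, 2iL and 48 h called 1, 2iL alone called 4 and 48 h alone called 1. Sites are named below by the distance of the highest summit from the nearer edge of the gene span, with a minus sign on the side of lower coordinates. In 2iL 7 regions lay on that side and 4 on the other, and no summit lay inside the span in any library. The span covers all RefSeq transcripts of the gene, and single start sites were not used here. The member regions covered 16.6, 12.6 and 7.6 kb in the 3 libraries in order of time, and their median width was 1552, 1258 and 954.5 bp, against 993, 979 and 878 bp over each whole list.

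**Figure D1:**
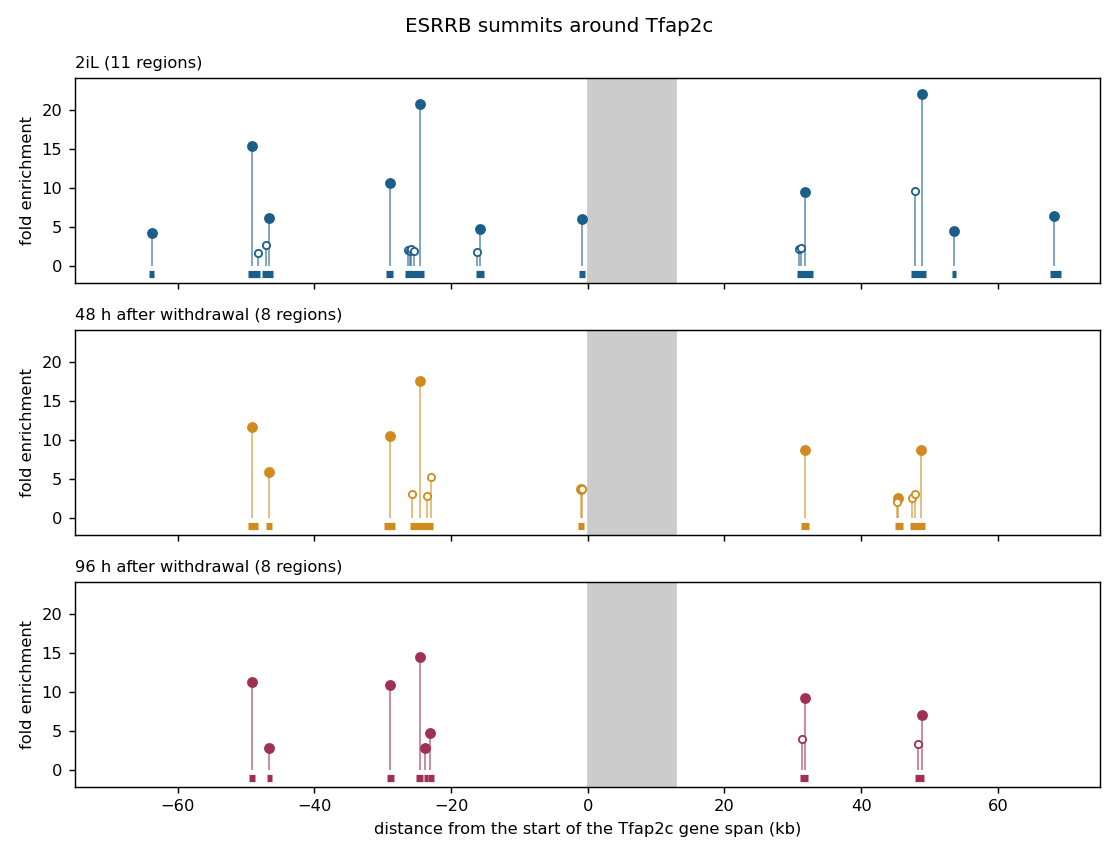
ESRRB summits around Tfap2c in the 3 libraries, with the distance from the start of the gene span in kb on the horizontal axis and the fold enrichment over local background on the vertical axis. Filled points are the highest summit of each region, open points its other summits, bars the regions and the grey band the gene span. The 11 regions of 2iL and the 8 of each later library lie on both sides of the gene and none has a summit in it.

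The region at +18.8 kb sat on the start of Gm36038, a long noncoding RNA gene on the plus strand (chromosome 2, 172577116 to 172607961), in every library, and the promoter window of that gene is shown for this reason. The window is chr2:172576866-172577165, from 250 bases before the gene's start to 50 after it, taken from RefSeq (GRCm38.p6, plus strand). The 235 capitals mark the bases that lie inside the region of all 3 libraries.
Gm36038 promoter window: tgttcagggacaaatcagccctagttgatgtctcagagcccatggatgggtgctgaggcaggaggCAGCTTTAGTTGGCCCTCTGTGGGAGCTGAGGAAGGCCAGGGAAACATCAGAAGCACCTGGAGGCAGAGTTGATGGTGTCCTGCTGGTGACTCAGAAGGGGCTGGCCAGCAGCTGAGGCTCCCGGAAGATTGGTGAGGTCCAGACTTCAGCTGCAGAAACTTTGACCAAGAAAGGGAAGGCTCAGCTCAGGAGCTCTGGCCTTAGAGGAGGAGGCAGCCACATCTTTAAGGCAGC
The window was searched on both strands for TCAAGGTCA, for its core AAGGTCA (which every TCAAGGTCA also holds) and for the AP-2 motif GCCNNNGGC, and held none of these letters. The highest summits of the region lay 234 bp past the end of the window in 2iL, 245 bp at 48 h and 272 bp at 96 h. Of all 32817 promoter windows of this length, 0.42% held TCAAGGTCA, 4.72% AAGGTCA and 16.6% GCCNNNGGC. In the 587 windows that overlapped an ESRRB region in all 3 libraries the shares were 2.04%, 12.6% and 25.0%. The windows of the other 4 promoters of the table near Tfap2c, those of Gcnt7, Fam209, Gm40009 and Gm35982, overlapped no region in any library. No promoter window of Tfap2c itself was at hand, so its own promoter was not searched for these motifs.

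The strongest region of the locus in naive cells lay at +35.9 kb, inside Gm36038 (chromosome 2, 172592927 to 172595133). Its highest summit held 197 reads over a local background of 8.01 reads in 2iL, 152 over 16.5 at 48 h and 66 over 8.61 at 96 h. Fold enrichment, the ratio of summit reads to local background with 1 added to both, was 22.0 in 2iL (95% Poisson interval from the reads 19.0 to 25.2), 8.73 at 48 h (7.40 to 10.2) and 6.97 at 96 h (5.41 to 8.84). The 2iL interval lay above both later ones, and the later ones overlapped. The fold at 48 h was 0.40 times that of 2iL (95% interval 0.32 to 0.49), and at 96 h 0.32 times (0.23 to 0.42). A lesser summit of the same region, at +35.0 kb, had a fold of 9.51 in 2iL (7.31 to 12.2) and of 2.98 (2.05 to 4.19) at the matching place at 48 h. At 96 h the lesser summit lay at +35.4 kb with a fold of 3.32 (2.26 to 4.72).

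The second strongest region in 2iL, at −24.5 kb (chromosome 2, 172518968 to 172521676), had folds of 20.7 (17.6 to 24.1), 17.5 (15.4 to 19.9) and 14.4 (11.9 to 17.3) in the 3 libraries, from 163, 246 and 111 reads. It was the strongest region of the locus at both later times. Its ratios to 2iL were 0.85 (0.69 to 1.04) after 48 h and 0.70 (0.54 to 0.89) after 96 h. The sites at +35.9 kb and −24.5 kb were also set side by side within each library, where depth is shared but each fold is over its own local background. They were taken as the strongest and second strongest in 2iL, so +35.9 kb was the stronger there by choice. The part of depth or local background was not tested. The ratio of the +35.9 kb fold to the −24.5 kb fold was 1.06 in 2iL (0.86 to 1.32). Later it was 0.50 (0.40 to 0.61) and 0.48 (0.35 to 0.66), so the later intervals lay below that of 2iL.

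**Figure D2:**
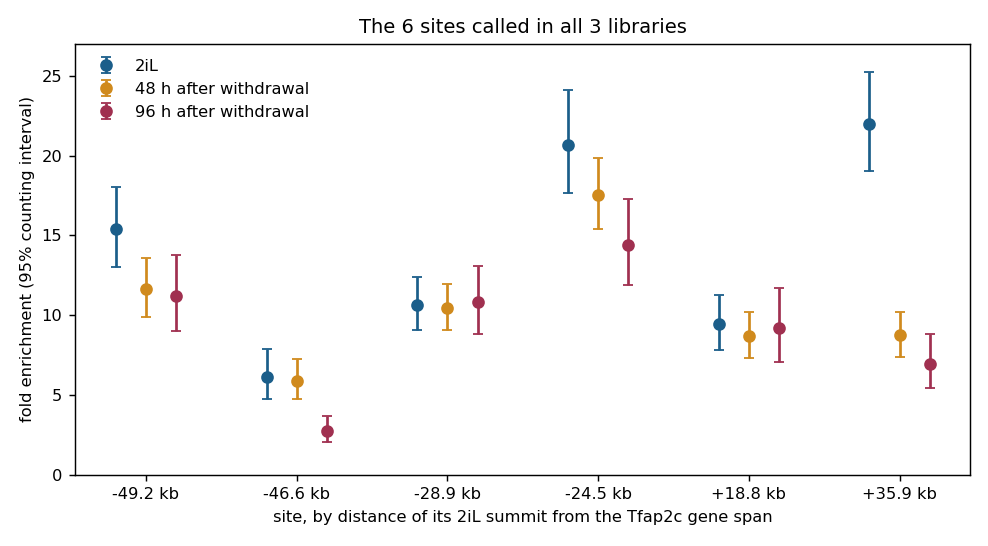
Fold enrichment of the highest summit (vertical axis) at the 6 sites called in all 3 libraries (horizontal axis), with 95% Poisson counting intervals and 1 point for each library. At +35.9 kb the 2iL point (22.0) stands above those of 48 h (8.73) and 96 h (6.97), while at −28.9 kb and +18.8 kb the 3 points lie close together.

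At −28.9 kb and +18.8 kb the fold over local background was nearly the same in each library, with overlapping intervals. Reads above background, relative to the lowest background of the library, were lower at both later times there. They were also lower at the median site called in all 3 libraries. At −28.9 kb (chromosome 2, 172516225 to 172517221) the fold was 10.6, 10.4 and 10.8 in 2iL and the later libraries, from 167, 212 and 103 reads. The 96 h to 2iL ratio there was 1.02 (0.78 to 1.3). At +18.8 kb (172576229 to 172578635), over the start of Gm36038, the fold was 9.44, 8.67 and 9.19, from 119, 145 and 63 reads, with a 96 h to 2iL ratio of 0.97 (0.70 to 1.32). The local background was 14.8, 19.4 and 8.61 reads at −28.9 kb and 11.7, 15.8 and 5.96 reads at +18.8 kb, lowest at 96 h at both. On a second scale, reads above background divided by the depth floor of the library (its lowest background, 5.04, 8.09 and 5.84 reads), the ratio to 2iL at −28.9 kb was 0.79 after 48 h and 0.54 after 96 h. At +18.8 kb it was 0.75 and 0.46. The median over all 4260 sites called in the 3 libraries was 0.86 after 48 h and 0.65 after 96 h. The ratios at −28.9 kb and +18.8 kb thus depend on the scale, and the second scale was chosen after the values were seen.

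A pair of sites lay close together inside Gm40009, another long noncoding RNA gene. At −49.2 kb (172496006 to 172497678) the fold was 15.4 in 2iL (13.0 to 18.0), 11.6 at 48 h (9.89 to 13.6) and 11.2 at 96 h (9.02 to 13.8), so neighbouring intervals overlapped, and the 96 h to 2iL ratio was 0.73 (0.55 to 0.95). At −46.6 kb (172498062 to 172499613) it was 6.15 (4.74 to 7.86), 5.89 (4.72 to 7.26) and 2.77 (2.03 to 3.70), and the 96 h interval lay below both others. The local background at that summit was 9.24, 13.8 and 15.2 reads, and its 15.2 reads at 96 h were the most at any highest summit of the locus in that library, where the others had 5.84 to 8.61. The part of that background in the lower fold was not tested.

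The summits of these 6 sites were at nearly the same base in every library. The highest summits of the 3 libraries spanned 8 bp at −46.6 kb, 26 bp at +35.9 kb, 38 bp at +18.8 kb, 43 bp at −49.2 kb, 44 bp at −24.5 kb and 59 bp at −28.9 kb. Over all 4260 merged sites called in the 3 libraries the median span was 43 bp, and 83.4% spanned at most 100 bp.

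Among the 6 sites, reads were shared out differently in 2iL than later, and the site at +35.9 kb was the one whose 2iL interval overlapped neither later interval. It held 23.0% of the 855 summit reads of the 6 sites in 2iL (95% exact binomial interval 20.3 to 26.0), 15.3% of 996 at 48 h (13.1 to 17.6) and 13.9% of 475 at 96 h (10.9 to 17.3). The site at −24.5 kb held 19.1% in 2iL (16.5 to 21.9), 24.7% at 48 h (22.0 to 27.5) and 23.4% at 96 h (19.6 to 27.4). Its 2iL interval ended just below the start of that at 48 h and overlapped that at 96 h. The site at −46.6 kb held 7.3%, 8.6% and 9.3%. At the other 3 sites the share ranged from 13.3% to 21.7% and all intervals of a site overlapped.

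**Figure D3:**
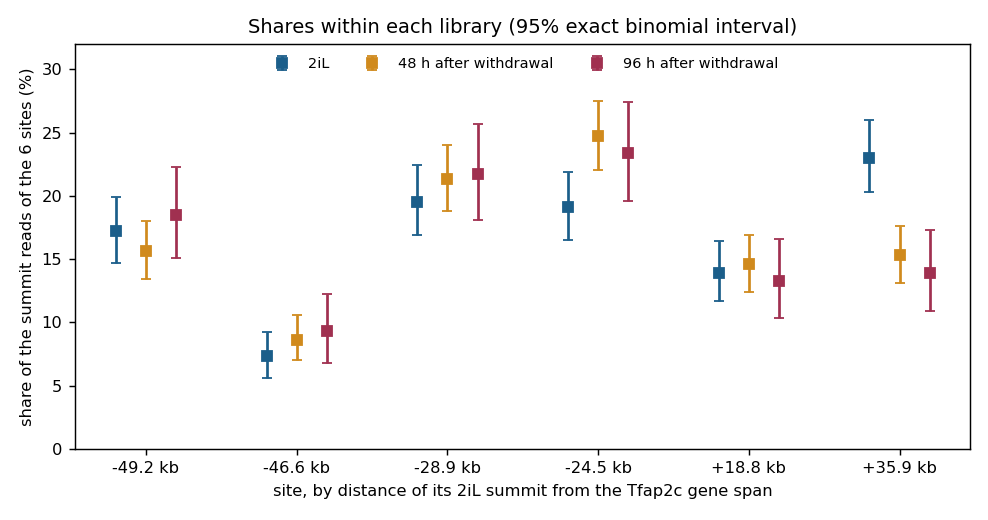
Share of the summit reads of the 6 sites that each site held (vertical axis, percent) in the 3 libraries, with 95% exact binomial intervals. The share of the +35.9 kb site is 23.0% in 2iL, above its 15.3% at 48 h and 13.9% at 96 h.

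Set among the 4260 sites that all 3 libraries called, most Tfap2c sites were of high fold. The site at +35.9 kb lay at the 98.8 percentile of fold in 2iL, at 69.0 at 48 h and at 66.7 at 96 h. The site at −24.5 kb lay at 98.2, 97.3 and 95.2, and that at −49.2 kb at 92.7, 86.5 and 89.8. The percentile of −28.9 kb was 75.8, 80.6 and 88.8, and that of +18.8 kb 67.7, 68.7 and 82.6. The site at −46.6 kb was at 31.4 and 37.7, and at 1.5 at 96 h. The median 96 h to 2iL ratio of fold over these sites was 0.77, and 110 of them (2.58%) had a ratio as low as +35.9 kb. Strong 2iL sites had lower ratios in general. Of the 852 sites in the strongest 20% by 2iL fold (at least 11.4), whose median ratio was 0.59, 10.7% were as low. Of the 100 shared sites nearest to +35.9 kb in 2iL fold (18.6 to 25.9), whose median ratio was 0.63 at 96 h, 19 were as low. On the scale of reads above background over the depth floor its ratio was 0.45 at 48 h and 0.26 at 96 h, and 5.92% of all shared sites were as low at 96 h. On that scale the 96 h ratio was 0.51 at −49.2 kb, 0.47 at −46.6 kb and 0.58 at −24.5 kb, and the median over all shared sites was 0.65, above all 6 sites of the locus.

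**Figure D4:**
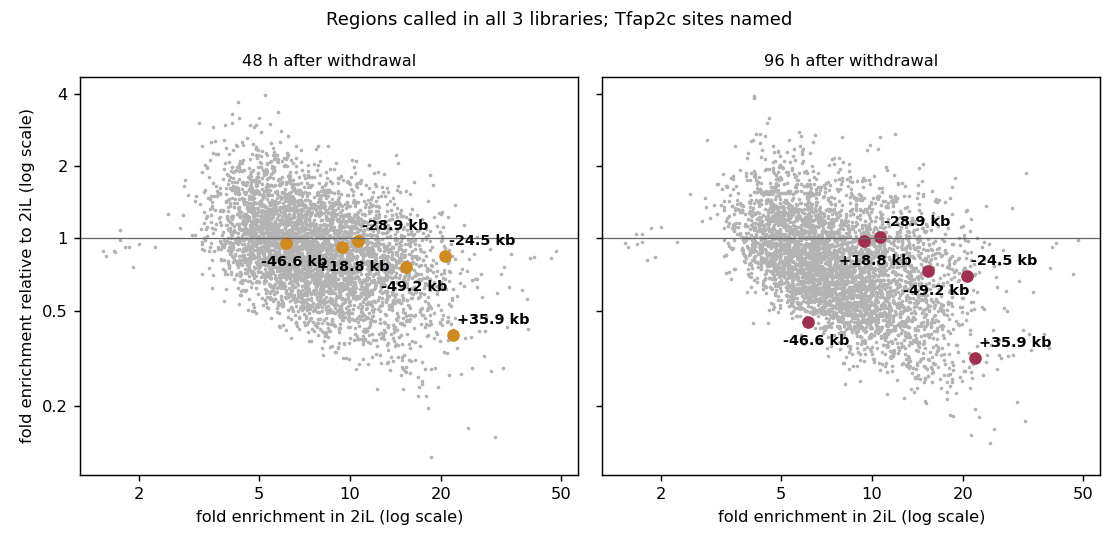
Fold at 48 h (left) and 96 h (right) relative to 2iL against the fold in 2iL, both axes on a log scale, for all 4260 merged sites called in the 3 libraries (grey), with the 6 Tfap2c sites coloured and named. The +35.9 kb site has the lowest ratios of the 6, 0.40 and 0.32, and strong 2iL sites lie lower in general, with 19 of the 100 sites nearest to it in 2iL fold as low at 96 h.

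The other sites were called in 1 or 2 libraries. The region nearest the gene, at −0.9 kb (chromosome 2, 172544423 to 172545298), reached 5.93-fold in 2iL (4.61 to 7.50, 67 reads). At 48 h it had a pair of equal summits at 3.73 (2.78 to 4.91, 49 reads each), and it was not called at 96 h. The 4 sites called in 2iL alone lay at +55.2 kb (fold 6.33, 56 reads), −15.7 kb (4.65, 38 reads), +40.6 kb (4.50, 28 reads) and −63.8 kb (4.16, 29 reads). The site at +32.5 kb was called at 48 h alone, with a fold of 2.56 (1.73 to 3.66, 28 reads), at the 2.2 percentile of its list. ESRRB too weak to be called is not seen in these lists.

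Next to the −24.5 kb summit, a summit was called after withdrawal at a place with none in the 2iL list. At 48 h the region reached to 172523079 and held a summit at −23.0 kb with a fold of 5.22 (3.91 to 6.83, 51 reads). At 96 h a region of its own (172522353 to 172523182) had its summit at −23.0 kb with a fold of 4.68 (3.22 to 6.57, 31 reads). A small region between them at 96 h (172521755 to 172522295), at −23.8 kb, had a fold of 2.74 from 19 reads. The 2iL region ended at 172521676.

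Of the 11 regions of 2iL, 7 (63.6%) were called at 48 h, where 50.7% of all 2iL regions were. At 96 h 6 (54.5%) were called, against 35.0% of all, and the same 6 were called at both times, against 31.3%. In the other direction, 7 of the 8 regions of 48 h were called in 2iL (63.5% of that list) and 6 at 96 h (49.3%). Of the 8 regions of 96 h, 6 were called in 2iL (69.5% of that list) and all 8 at 48 h (78.3%). These 8 are not separate matches, since those at −24.5, −23.8 and −23.0 kb overlapped the same 48 h region. The locus was picked on these counts, so nothing is read from them. By strength, 5 of its 2iL regions were in the strongest 20% of the list, with folds of at least 8.71, and all 5 were called at both later times, as were 59.7% of that part of the list. Its other 6 had folds of at most 6.33 and lay in the 3 weakest parts of 20%, of which 12.9%, 19.1% and 26.7% were called at both, and 1 of the 6, −46.6 kb, was called at both. When regions had to share at least 50% of each one's length, 3 of the 11 were called at 96 h, where the regions of the locus were narrower.

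The regions farthest from the gene inside the 100 kb limit lay at −63.8 kb and +55.2 kb in 2iL. The nearest beyond the limit in 2iL lay at 288.3 kb on the lower side (fold 7.59, 6235 bp from Mc3r, a melanocortin receptor gene) and 180.6 kb on the upper side (fold 5.13). At 48 h the nearest outside lay at 133.5 kb, inside Cass4 (fold 6.24), and at 278.3 kb (4.10). At 96 h they lay at 168.3 kb, inside Cstf1 (6.38), and at 278.3 kb (3.58). Inside the limit the density was 5.17, 3.76 and 3.76 regions per 100 kb in the 3 libraries, and between 100 and 500 kb it was 1.5, 1.12 and 0.87.

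Few genes had as many ESRRB regions nearby, but Tfap2c was picked for its many retained regions, so its place among genes is a description. Among 21887 protein-coding genes the median was 1 region within 100 kb in each library. At least 11 in 2iL were found for 99 genes (0.45%), at least 8 at 48 h for 233 (1.06%) and at least 8 at 96 h for 53 (0.24%). The 8 regions of Tfap2c at 96 h lay on 6 merged sites, since those at −23.8 and −23.0 kb merged with that at −24.5 kb. At least 6 regions of 2iL that were called at both later times lay near 65 genes (0.30%), Tfap2c included, and the highest number was 10. Genes that lie close together share regions and are not independent. The share at 96 h was 0.07% with a window of 50 kb and 1.17% with 200 kb.

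**Figure D5:**
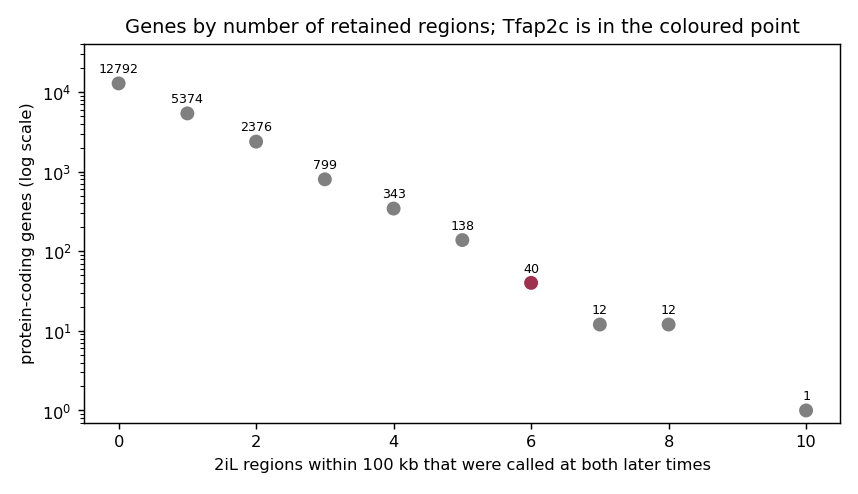
Number of protein-coding genes (vertical axis, log scale) by the number of 2iL regions within 100 kb that were called at both later times (horizontal axis). Tfap2c, which was picked for its many such regions, is 1 of 40 genes with 6 of them, and 12792 genes have none.

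Of the genes beyond 500 kb from Tfap2c, 5 had the pattern most like it, by the sum of absolute differences in 4 counts over the 3 libraries (regions in 2iL, at 48 h, at 96 h, and regions of 2iL called at both). Raver1, the gene of an RNA-binding protein, differed by 1, with 11, 8 and 7 regions of which 6 were called at both. The next differed by 2 each. Rere, an atrophin-family gene, had 11, 9 and 7 regions, Ryr2, a ryanodine receptor gene, 10, 8 and 7, Myadm 12, 9 and 8, and Rap1gap2, a gene for an activator of the GTPase Rap1, 10, 8 and 7, with 6 called at both in each case. Their highest 2iL folds were 15.5, 17.4, 13.9, 12.4 and 9.71, against 22.0 for Tfap2c. The counts cover the gene span and 100 kb on each side, so longer genes had longer windows. Ryr2 (chromosome 13, 11553099 to 12106945), Rere (chromosome 4, 150281511 to 150621966) and Rap1gap2 (chromosome 11, 74383356 to 74610915) are much longer than Tfap2c (12945 bp).

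The neighbours of Tfap2c had few regions of their own on the lower side. Fam209, Rtf2 and Gcnt7, which lie 71.4, 75.8 and 87.1 kb from Tfap2c, had no region inside them in any library, and all 7 of the 2iL regions within 100 kb of each were also within 100 kb of Tfap2c. Regions were called after withdrawal further out, in genes with none in 2iL. Cstf1, the gene of a cleavage stimulation factor, had 2 inside it at 48 h and 1 at 96 h. The stronger (172377024 to 172377702) had a fold of 7.53 at 48 h from 131 reads and 6.38 at 96 h from 73 reads. It lay 6.5 kb from Aurka, which encodes a mitotic kinase. Cass4, a scaffold protein gene, had 1 region inside it at 48 h alone (fold 6.24, 57 reads). Fam210b had none within 10 kb in any library, and Mc3r had 1 within 10 kb in each.

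On the upper side Bmp7, which encodes a bone morphogenetic protein and lies 309.4 kb away, had 3 regions inside it in 2iL and 1 at each later time. The one called in all 3 (172870501 to 172872405 in 2iL) had folds of 9.95, 8.68 and 5.38 from 150, 211 and 97 reads. Rae1, a gene of messenger RNA export, had 1 region inside it in 2iL alone (fold 7.11). Spo11, the gene of the enzyme that makes meiotic DNA breaks, and Rbm38, an RNA-binding protein gene, had none within 10 kb in any library.

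Among the 5 genes of the AP-2 family, Tfap2c, which was picked for its many retained regions, had the most regions in each library. Within 100 kb a region was called for 2 (2iL), 2 (48 h) and 3 (96 h) of the 5, with the picked Tfap2c counted each time. Of all protein-coding genes 69.8%, 64.7% and 54.0% had one. Tfap2a, which acts in neural crest and surface ectoderm, had 3, 0 and 1 regions. The strongest in 2iL, at 79.4 kb, had a fold of 7.88 (chromosome 13, 40817105 to 40818254) and was called at neither later time. Its 96 h region lay inside the gene with a fold of 3.35. Tfap2e had none in 2iL and 1 at each later time, at 95 kb with folds of 3.40 and 3.86. Tfap2b and Tfap2d had none in any library.

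Of 8 genes for AP-2 cofactors and inhibitors, regions lay within 100 kb of 7 (2iL), 5 (48 h) and 5 (96 h), where 69.8%, 64.7% and 54.0% of all protein-coding genes had one. Cited2, which encodes an AP-2 coactivator, had 2, 3 and 3 regions, and its strongest in 2iL (35.2 kb away, fold 13.7) was called in all 3 libraries. Cited4 of the same family had 2 in each, and Cited1 had 2 in 2iL alone with a highest fold of 7.11. Kctd15, the gene of an AP-2 inhibitor, had 4, 2 and 2, with a highest fold of 13.6 in 2iL (chromosome 7, 34669162 to 34670068) that was 5.0 at 96 h. Kctd1 had 2, 1 and 1, and Wwox, a very long gene, 4, 7 and 5. Yeats4 had 1 in 2iL alone and Npm1 none.

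A further list held 7 chosen genes linked to AP-2gamma in germ cells. All 7 had a region within 100 kb in 2iL and at 48 h, and 6 at 96 h. Of all protein-coding genes 69.8%, 64.7% and 54.0% had one. Prdm14, which encodes a regulator of germ cells and of naive pluripotency, had 7, 4 and 3 regions. The strongest in 2iL, at 61.2 kb, had a fold of 21.8 and was called at 48 h and not at 96 h. Prdm1 had 4, 7 and 3, Kit, a receptor kinase gene, 6, 5 and 3, Nanos3 4, 2 and 3, Dppa3 7, 3 and 5, Sox17 1, 1 and 0, and Dnd1 1, 2 and 1.

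In the list of 9 genes that act with AP-2gamma in trophoblast, regions lay near 7 (2iL), 8 (48 h) and 7 (96 h), beside the same 69.8%, 64.7% and 54.0% of all genes. With so few genes in each list, nothing particular to the lists is read from these counts. Esrrb itself had 13, 4 and 4, which is more than Tfap2c in 2iL and fewer at both later times. Sox2 had 6, 6 and 3, Tead4 3, 3 and 2, Eomes 3, 2 and 2, Cdx2 2, 3 and 1, and Gata2 5, 2 and 1. Gata3 had 2 at 48 h alone, Ets2 1 at each later time and none in 2iL, and Elf5 1 in 2iL alone, 99.5 kb away. Of the 29 genes in the 4 lists, Tfap2c had the most regions at 48 h and at 96 h and Esrrb the most in 2iL. Nothing is read from the place of Tfap2c, which was picked for its many retained regions.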

How the data were processed

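The submitters' processing notes name bcl2fastq 2.20.0.422, BWA, SAMtools, Picard and MACS2, and the build mm10. How each was run, and with which threshold, these sources do not say. The authors deposited 1 peak list for each of the 3 antibody libraries. The 3 input libraries were not analysed here. Each line is a summit with the authors' fold enrichment, a ratio over local background, and the deposited −log10 p and −log10 q. The deposited score was not used.

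Regions are unique intervals, each with its highest fold. Solving fold and p for summit reads gave whole numbers, within 0.05, for 100% of summits in each library. The lowest background, a floor set mainly by depth, was 5.04, 8.09 and 5.84 reads, so 48 h had 1.60 and 96 h 1.16 times the 2iL floor. Median reads at the highest summit of a region were 51, 68 and 45. Intervals are exact Poisson or Clopper-Pearson at 95%, taking the local background as known. Reads are not shown to be independent molecules. Regions that overlapped by at least 1 bp were called shared. Code was tested on simulated data and run in Python 3.11.15 with scipy 1.17.1 and pandas 2.3.3. Genes came from RefSeq (GRCm38.p6, the same assembly as mm10), and all 29 genes of the lists as used here matched. A further gene first placed on the cofactor list was left out and is not reported here. No test between conditions was possible.

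The locus, the lists and the rules were chosen with earlier results of these data known. By rule, the text names Tfap2c, its protein-coding neighbours within 500 kb, the genes of 4 AP-2 lists and the 5 genes of most similar pattern. Genes whose windows shared a region were taken once among those 5. Sequence under the other regions was not used here, so motifs were searched in promoter windows alone.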

Additional observations from a re-analysis of the deposited data

How the results depend on the processing

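The region counts at Tfap2c, and the number of its 2iL regions called again, stayed within 1.5 times of the reported value with a q of 1e-05 or less, with lists of equal length, with windows of 50 and 200 kb, with the highest summit alone and with summits within 250 bp. When regions had to share at least 50% of each one's length, 3 of the 2iL regions were called at 96 h and 3 at both later times. The share of protein-coding genes with as many regions as Tfap2c, 0.45%, 1.06% and 0.24%, was 0.34%, 0.24% and 0.07% with a window of 50 kb and 2.77%, 1.40% and 1.17% with 200 kb, and 0.14% in 2iL and 0.85% at 48 h with lists of equal length. The median percentile of the 6 sites among shared sites, 84.3, 74.8 and 85.7 by fold, was 89.6, 79.2 and 79.6 by −log10 p and 89.9, 77.2 and 71.7 by reads. With a window of 50 kb 1 AP-2 family gene had a region at 48 h, in place of 2, and the other list counts stayed within 1.5 times. With reads above background over the depth floor in place of fold, the 96 h to 2iL ratio was 0.51 at −49.2 kb (0.73 by fold), 0.54 at −28.9 kb (1.02) and 0.46 at +18.8 kb (0.97), and the 48 h ratio at −28.9 kb was 0.79 (0.98). The other 8 ratios of the 6 sites stayed inside their counting intervals. The cause of these shifts was not tested.

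Leaving out a replicate was not possible with 1 library for each condition. No paired analysis was possible because each condition had 1 library. The motif search around summits was not run, since no genome sequence was used here. Weak regions rest on few reads (19 to 29 at the weakest), and the part of depth in whether they were called was not tested.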
